A study of Ovis aries with 26 samples.

Results

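The genes described here are 8 transporters, channels and enzymes of bicarbonate and chloride secretion in the pancreatic duct: SLC4A4, SLC12A2, SLC4A2, CA2, SLC26A6, SLC26A3, ANO1 and SCNN1A. They were taken by name from a list set with earlier results of these data known, and all 8 were found among the 24478 genes of the files. Of these, 7 are listed by symbol, and CA2 is listed as LOC101113341, which a RefSeq table of the sheep assembly ARS-UI_Ramb_v3.0 pairs with that symbol. Single-cell RNA-seq (10x Genomics, 3' end) was carried out on the pancreas of American Romney sheep, with 26 libraries from 23 animals in 7 groups. The 80-day fetuses were 4 males of the WT group, of which replicates 2 and 4 are heterozygous for a targeted CFTR allele, and 3 CFTR-/- males. By the study, the allele of these heterozygous fetuses was targeted in another exon than those of the CFTR-/- animals. At 120 days there were 3 WT fetuses (1 of them female), 4 CFTR-/- males and 2 CFTR-/- females, and at term 4 WT lambs (1 female) and 3 CFTR-/- lambs (2 females and 1 male). All CFTR-/- animals carry alleles targeted in exon 2. By the study's methods, every male among them was cloned by nuclear transfer from 1 neonatal male fibroblast line, and every female was bred naturally. The cloned animals therefore share 1 genome, and the 2 females at 120 days are twins. Replicates 2 to 4 of the WT group at 80 days are triplets, and replicates 1 and 2 of the WT fetuses at 120 days, 2 and 3 of the CFTR-/- fetuses at 80 days and 2 and 3 of the CFTR-/- males at 120 days share an animal number in the study's list. Each fetus was counted as 1 animal without a term for the litter, so the spread within these groups may understate that between litters. At 120 days the breeding of the CFTR-/- fetuses cannot be told apart from their sex, and in the cloned fetuses at 80 and 120 days the genotype cannot be told apart from cloning.

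Duct cells secrete a fluid rich in bicarbonate, which flushes the digestive enzymes of the acinar cells into the gut. Bicarbonate enters the duct cell at its basolateral side through the sodium bicarbonate cotransporter SLC4A4, or is made inside it by the carbonic anhydrase CA2. It leaves at the apical side through CFTR, the chloride and bicarbonate channel that is lost in cystic fibrosis, and through chloride/bicarbonate exchangers such as SLC26A6 and SLC26A3. SLC12A2 is the basolateral sodium-potassium-chloride cotransporter, SLC4A2 a basolateral chloride/bicarbonate exchanger, ANO1 a calcium-activated chloride channel, and SCNN1A the alpha subunit of the epithelial sodium channel.

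Of 109501 barcodes, 79510 had over 200 and under 6000 genes and under 25% mitochondrial unique molecular identifiers (UMIs, 1 for each captured transcript) and were kept, 943 to 9543 per library. The libraries held 7841217 to 171256169 UMIs, and no library shared over 0.587% of the barcodes of the smaller library of a pair. Cells were assigned to 10 lineages from lists of marker genes that hold neither the 8 genes nor CFTR. The 11179 duct-like cells (14.1% of the kept cells, 105 to 1409 per animal) had a median of 9678 UMIs. Their markers had a median of 68.8 UMIs per 10000 in these cells against 2.76 in all other kept cells. Of the duct-like cells, 804 (7.19%) lay near the limit of the assignment. For each animal and lineage with at least 20 cells, UMIs were summed and are given as CPM, in which every sum is scaled to the same total. Acinar markers were counted in duct-like cells too, at 339 to 17537 CPM over the animals, with the highest value in WT replicate 2 at term. The library of CFTR-/- male replicate 3 at 120 days stands apart, with the fewest UMIs and 105 duct-like cells in which mitochondrial UMIs made up a median of 18.4%. The sums of the duct-like cells held 643609 to 14500052 UMIs per animal. Because the reads come from the 3' end and are not scaled to length, levels are compared between cells and animals of 1 gene and not between genes.

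CFTR itself was counted in the duct-like cells of all 23 animals, at 356 ± 180 CPM (SD). At 80 days WT fetuses had 478, 289, 372 and 204 CPM and CFTR-/- fetuses 449, 581 and 680 CPM (log2 0.85, adjusted p = 0.204 by edgeR), and the groups overlapped. At 120 days the WT fetuses had 202 to 337 CPM, the CFTR-/- males 293, 338, 970 and 249 CPM and the females 225 and 314 CPM. The value of 970 CPM comes from the shallow library of replicate 3. At term, WT lambs had 290, 256, 290 and 216 CPM and CFTR-/- lambs 264, 402 and 241 CPM (0.30, adjusted p = 0.698). Transcripts counted at their 3' end lie outside the targeted exon, so these counts do not check the genotype.

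SLC4A4 was found chiefly in the duct, where it reached 700 ± 310 CPM (SD, n = 23 animals, range 105 to 1242) in duct-like cells. The next lineages in order were intestine-like cells (44.0 ± 37.2, n = 2) and Schwann-like cells (37.5 ± 29.3, n = 12), and the others lay between 7.12 and 13.8 CPM. Below the duct-like cells, no neighbours in this order lay further apart than the larger of their SDs. SLC4A4 was higher in duct-like than in acinar-like cells of 23 of 23 animals, and likewise in 21 of 21 against endocrine-like and 22 of 22 against stromal-like cells. In duct-like cells 85.3% held at least 1 UMI of SLC4A4, or 55.7% after each cell was thinned to 2000 UMIs (369 of 11179 cells were too shallow). The thinned share in acinar-like cells, which serve here as the background, was 1.29%, at median depths of 9678 and 26972 UMIs before thinning.

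SLC12A2, which loads chloride across the basolateral side, was also higher in duct-like cells (168 ± 70.0 CPM, n = 23), but less exclusively. Intestine-like cells of 2 animals had 194 and 289 CPM. Endothelial-like cells had 100 ± 39.0 CPM (n = 23) and mural-like cells 78.2 ± 32.5 (n = 21), and neither the duct-like and endothelial-like nor the endothelial-like and mural-like means lay further apart than their SD. Acinar-like cells followed at 32.1 ± 32.9 CPM. Duct-like cells had the higher level in 23 of 23 animals against acinar-like cells, in 18 of 23 against endothelial-like cells and in 20 of 21 against mural-like cells.

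SLC4A2, the basolateral anion exchanger, was highest in duct-like cells as well, at 64.1 ± 20.4 CPM. Schwann-like cells came next with 36.5 ± 16.1 CPM (n = 12), then intestine-like (27.1), endothelial-like (20.5) and stromal-like cells (18.8), and acinar-like cells had 8.55 ± 4.10 CPM. From the Schwann-like to the acinar-like cells, each neighbour in this order lay within the SD of the one before it. The level was higher in duct-like than in acinar-like cells of 23 of 23 animals and than in Schwann-like cells of 11 of 12.

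CA2 was not a duct-restricted gene in these samples. The order ran from intestine-like cells (186 and 4646 CPM in WT replicate 1 at 80 days and WT replicate 4 at term) and erythroid-like cells (460 ± 218, n = 9) to endocrine-like (144 ± 68.2, n = 21), duct-like (104 ± 38.9) and endothelial-like cells (55.6 ± 47.4). Erythroid-like cells were higher than duct-like cells in 9 of 9 animals, and red cells are long known for their carbonic anhydrase. Endocrine-like and duct-like means lay within their SD, and endocrine-like cells were the higher in 16 of 21 animals. Acinar-like cells had 25.8 ± 13.3 CPM and were lower than duct-like cells in 22 of 23 animals.

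ANO1, the calcium-activated chloride channel, was highest in mural-like cells, the smooth muscle and pericyte class, with 40.8 ± 25.9 CPM (n = 21, range 11.9 to 129). Mural-like cells exceeded duct-like cells in 20 of 21 animals. Duct-like cells had 8.26 ± 10.2 CPM (range 0.500 to 47.3, median 5.97), stromal-like cells 8.05 ± 6.12 (median 7.15) and acinar-like cells 4.79 ± 2.70, none of these neighbours being further apart than the SD. Within animals, duct-like cells were lower than stromal-like cells in 17 of 22 and higher than acinar-like cells in 14 of 23. In Schwann-like cells 0 UMIs of ANO1 were counted, which allows up to 0.513 CPM over the 12 animals.

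Few UMIs of the apical exchangers and the sodium channel were counted in the duct. SLC26A6 had 77 UMIs in all duct-like cells, or 0.820 ± 0.639 CPM, below endothelial-like (4.86 ± 3.45), immune-like (3.52) and endocrine-like cells (1.84 ± 0.781). Endocrine-like cells exceeded duct-like cells in 19 of 21 animals. SLC26A6 was low in every lineage, with a highest mean of 5.05 CPM in erythroid-like cells. SLC26A3 had 11 UMIs in duct-like cells of 5 of 23 animals, a mean of 0.0797 CPM. Most of its transcripts came from intestine-like cells of 2 animals, with 27 UMIs in 23 cells of WT replicate 1 at 80 days (73.0 CPM) and 201 UMIs in 148 cells of WT replicate 4 at term (71.1 CPM). In every other lineage its mean was at most 0.391 CPM. SCNN1A had 43 UMIs in duct-like cells of 13 of 23 animals (0.444 ± 0.666 CPM) and 564 UMIs in acinar-like cells (0.581 ± 0.472). Its highest mean, 2.59 CPM, rested on 8 UMIs of intestine-like cells. SLC26A3 and SCNN1A were at 0 UMIs in Schwann-like cells, which allows up to 0.513 CPM, and in erythroid-like cells, which allows up to 0.701 CPM. These limits cover counting error only.

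**Figure D1:**
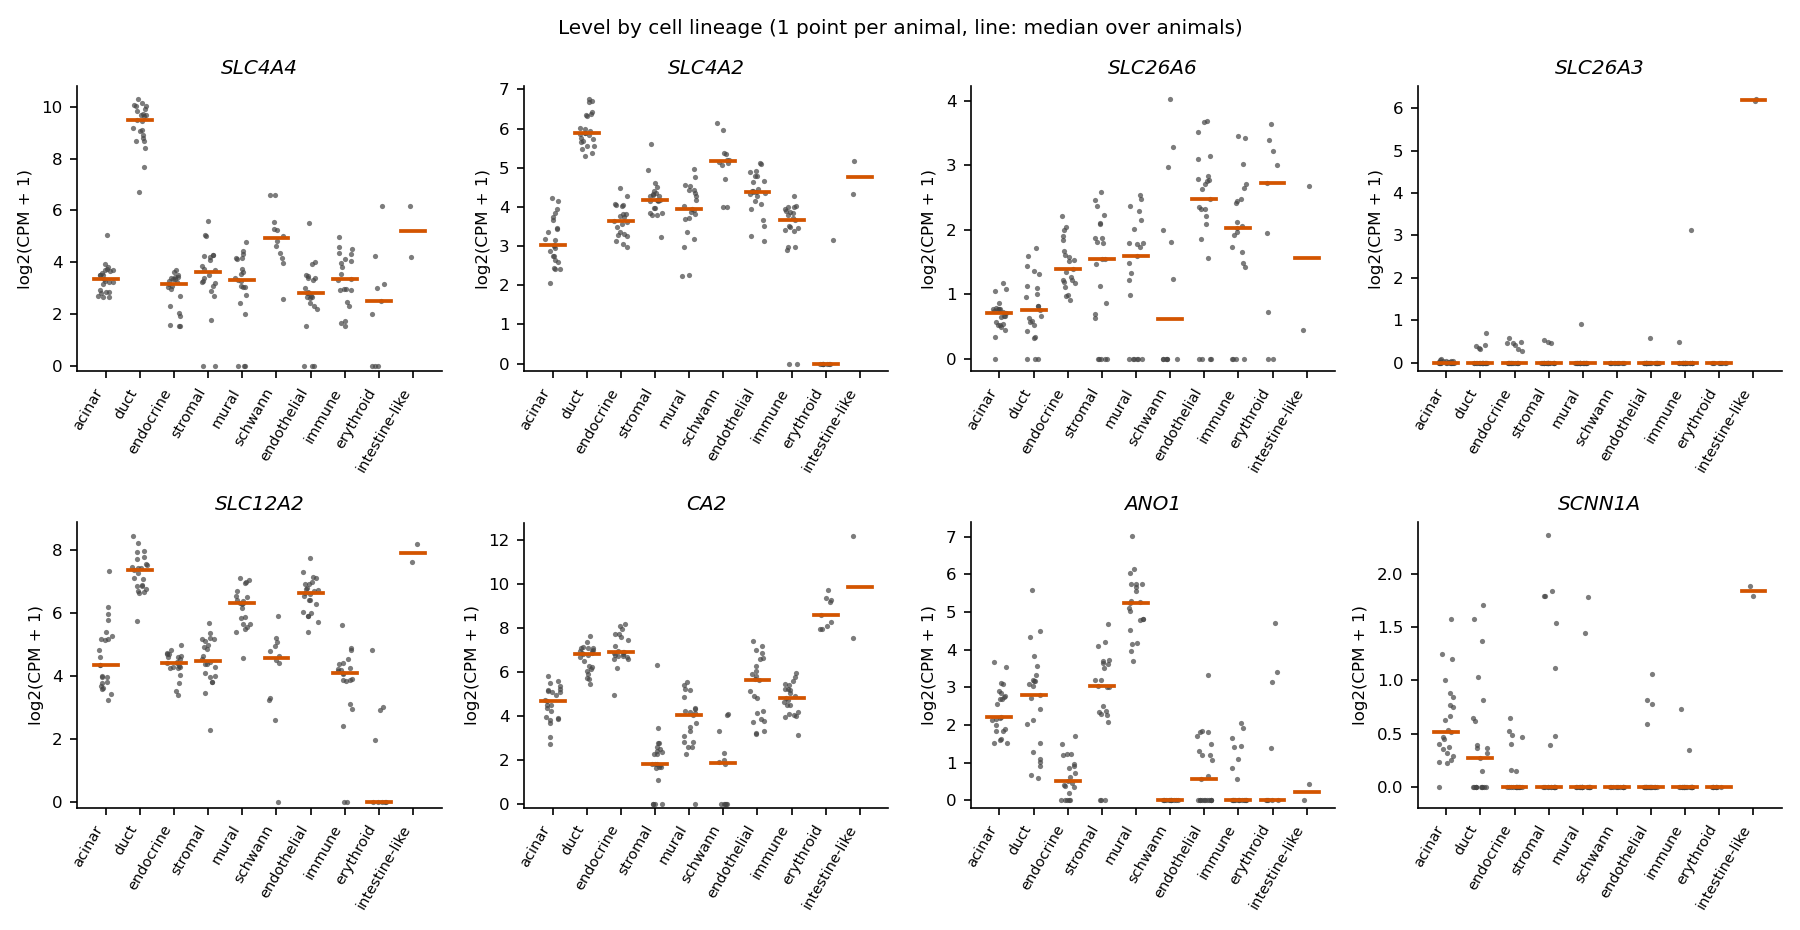
Level of each of the 8 genes by lineage, as log2(CPM + 1) of the UMIs summed per animal, with 1 point for each animal and a line at the median. SLC4A4 stands apart in duct-like cells (105 to 1242 CPM), SLC26A3 in the intestine-like cells of 2 animals, and ANO1 is highest in mural-like cells.

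The lineages were compared in 1 model with the animal as a block (edgeR's quasi-likelihood test, Benjamini-Hochberg adjustment over 16105 genes, threshold 0.05). The 7 members that passed the filter on low counts include all but SCNN1A. Without that filter SCNN1A, with 43 UMIs in duct-like cells, was lower than in acinar-like cells (-2.23, adjusted p = 9.46e-13). In CPM the means lay closer, at 0.444 and 0.581, and duct-like cells were lower in 13 and higher in 9 of 23 animals. SCNN1A was higher than in endocrine-like cells (1.21, adjusted p = 0.00682) and did not pass against stromal-like cells (0.18, adjusted p = 0.778). DESeq2, run without the filter, called 6, 6 and 5 members against these lineages. Over the 5 alternatives to this model, DESeq2 among them, 11356 to 14186, 11059 to 13075 and 10505 to 12112 genes were called in all. Against acinar-like cells, 5 of 7 were called, 3 higher and 2 lower in duct-like cells, with 70.7% of all genes called (35% higher and 35.8% lower). Against endocrine-like cells, 6 were called, 4 higher and 2 lower (69.5% of all genes, 33.3% higher and 36.2% lower), and against stromal-like cells 5, 4 higher and 1 lower (66.5%, with 34.1% higher and 32.4% lower). The members' median log2 fold changes were 0.52, 2.09 and 1.69 in this order, and those of all genes tested -0.02, -0.03 and 0.03. Since most genes differ between lineages, these counts say nothing particular to the members.

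SLC4A4 was higher in duct-like than acinar-like cells by 4.30 ± 0.194 (log2 ± SE, adjusted p = 4.338e-48), and by 6.25 and 5.35 against endocrine-like and stromal-like cells. SLC12A2 followed with 0.96 (adjusted p = 1.198e-10), 2.66 and 2.64, and SLC4A2 with 1.27 (adjusted p = 1.22e-22), 2.09 and 1.69. CA2 was higher than in stromal-like cells (4.30, adjusted p = 8.323e-28) and lower than in endocrine-like cells (-0.94, adjusted p = 6.7e-05), and against acinar-like cells its value of 0.31 did not pass (adjusted p = 0.194). ANO1 was higher than in endocrine-like cells (3.34, adjusted p = 5.724e-17), and SLC26A6 was lower than in endocrine-like and stromal-like cells (-1.51 and -1.48). SLC26A3 passed in none of the 3 comparisons (adjusted p of 0.183 to 0.711). Most of its UMIs in the model (228) came from intestine-like cells. The lineages compared held 11 (duct-like), 13 (acinar-like), 13 (endocrine-like) and 3 (stromal-like), too few for these tests to decide.

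Against acinar-like cells the scaling decided some of these values. The values above use trimmed-mean (TMM) factors, which assume that most genes do not differ. With the plain UMI totals in their place, the median of all genes moved from -0.02 to 1.61. ANO1 then turned from -1.20 (adjusted p = 1.067e-06) to 0.54 (adjusted p = 0.0438), and SLC26A6 from -1.46 to 0.24 (adjusted p = 0.359). CA2 moved from 0.31 to 1.95 (adjusted p = 1.23e-13) and SLC26A3 from 0.52 to 1.72 (adjusted p = 6.389e-05), while SLC4A4 reached 6.07, SLC4A2 2.96 and SLC12A2 2.60. The SLC26A3 values rest on 11 UMIs in duct-like and 13 in acinar-like cells and are not read as a difference. Of all genes called, 49.5% were higher in duct-like than acinar-like cells with TMM factors and 93.4% with totals. The split moved from 48.0% to 64.4% against endocrine-like cells (median of all genes 0.26 with totals) and from 51.3% to 59.5% against stromal-like cells (0.18), where no member changed its call or direction. The direction of ANO1 and SLC26A6 between duct-like and acinar-like cells therefore depends on the scaling. SCNN1A, which the filter left out, was not fitted with totals, so its value against acinar-like cells is not read as a difference.

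**Figure D2:**
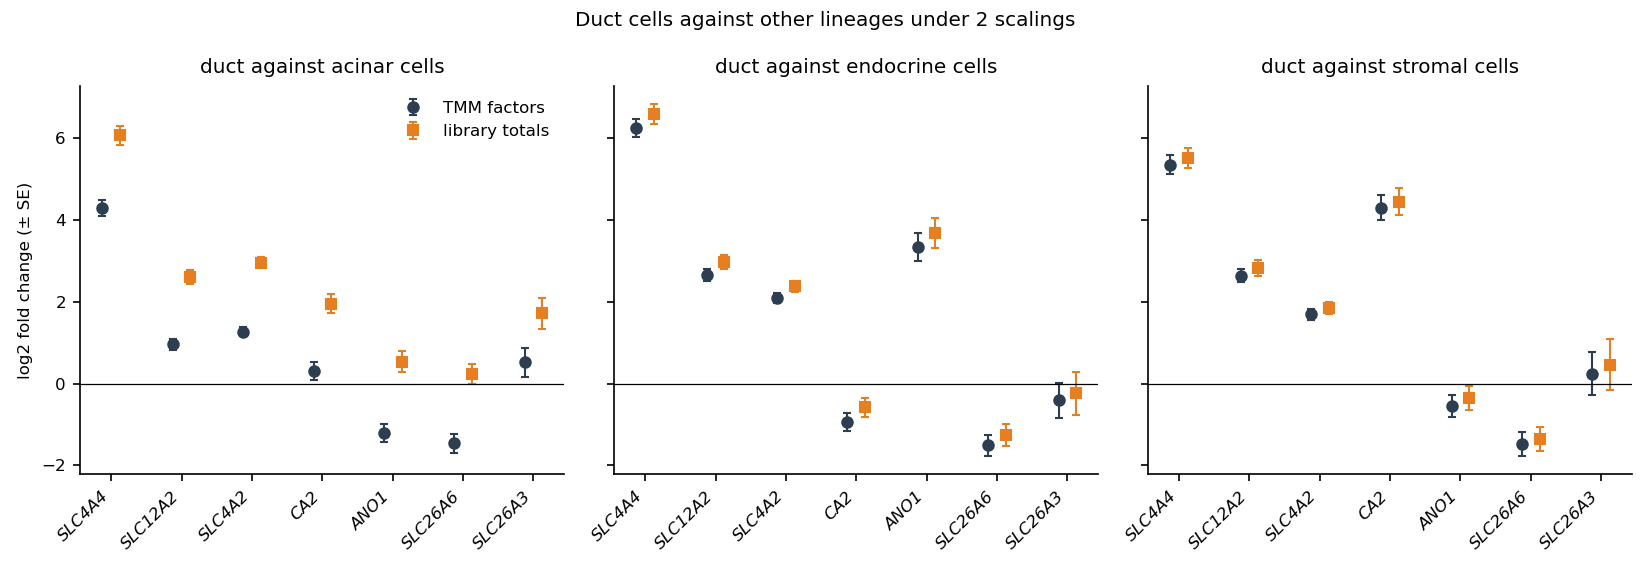
Log2 fold change of duct-like cells over acinar-like, endocrine-like and stromal-like cells for the members tested, with TMM factors and with library totals. The 2 scalings lie close to each other against endocrine-like and stromal-like cells, and against acinar-like cells ANO1 and SLC26A6 lie below 0 with TMM factors and above 0 with totals.

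A list of 55 further genes of the same pathway (receptors, chloride channels, exchangers, carbonic anhydrases, potassium channels and regulators, among others) shows the setting in which the members act. Of its 44 genes tested, 25 were higher and 9 lower in duct-like than acinar-like cells, 27 higher and 10 lower against endocrine-like cells, and 27 higher and 9 lower against stromal-like cells. Of all genes, 70.7%, 69.5% and 66.5% were called in these comparisons, and the median log2 fold change was 0.75, 1.00 and 1.26 for the list against -0.02, -0.03 and 0.03 for all genes. With library totals 42 of the 44 were called against acinar-like cells, where 14186 of all 16105 genes were called. The share of higher calls among all genes called moved there from 49.5% to 93.4%. CFTR was higher by 3.94, 6.29 and 7.60 in these comparisons. KCNE3, a potassium channel subunit that pairs with KCNQ1 in epithelia, was higher by 4.84, 7.43 and 7.14, and KCNQ1 was higher by 4.75 against endocrine-like and 6.63 against stromal-like cells. SCTR, the secretin receptor that starts ductal secretion, was higher by 4.06 against acinar-like and by 7.01 against stromal-like cells, and the chloride channel CLCN2 by 3.98 against acinar-like cells. BEST4, a bestrophin chloride channel, was lower in duct-like than in acinar-like cells (-5.85, adjusted p = 6.747e-44). LRRC8A, a subunit of the volume-regulated anion channel, was higher by 3.02 and SLC9A3R1, an apical scaffold protein, by 3.06 against endocrine-like cells.

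The genes whose levels followed a member most closely over all 177 sums of animals and lineages, among 14999 genes, were described by Spearman's rho. These sums share animals and libraries. SLC4A4 was closest to NDRG2 (0.609), DTX4 (0.601) and PLPP2 (0.598). SLC12A2 was closest to SYNE2 (0.785), ACTN4 (0.781) and TJP1 (0.779), and SLC4A2 to CTNNA1 (0.793). ANO1 was closest to MYL9 (0.704) and TPM1 (0.700), and CA2 to PLEK2 (0.640) and DMTN (0.629). For the scarce members the values were lower, with 0.469 for SLC26A6 (ALPL), 0.403 for SLC26A3 (LOC105608435) and 0.571 for SCNN1A (LOC105608435).

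To ask how CFTR loss and age bear on these genes, duct-like cells were compared between the groups in 1 edgeR model over all 23 animals, with 13281 genes tested. Of the 8 members, 5 passed the filter on low counts, and SLC26A6, SLC26A3 and SCNN1A did not. Without the filter, no group comparison called any of these 3 in duct-like cells. Where groups are said below not to overlap, the share of all genes that separate in the same way was not determined. A lack of overlap is therefore not shown to be particular to the members. With library totals in place of TMM factors, the share of called genes that were higher moved from 56.2% to 44.7% for CFTR-/- against WT at 80 days and from 76.3% to 64.3% at term. For 120 against 80 days it moved from 58.1% to 21.9% in WT (median of all genes -0.26) and from 52.8% to 33.2% in CFTR-/- males (-0.13), and the called members kept their calls.

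SLC4A4 was lower in CFTR-/- than in WT lambs at term. WT lambs had 1035, 965, 1137 and 475 CPM and CFTR-/- lambs 335, 105 and 203 CPM. All 3 CFTR-/- lambs lay below all 4 WT lambs, and their mean of 214 CPM was 0.237 of the WT mean of 903 CPM. The difference was -1.95 ± 0.383 (log2 ± SE, adjusted p = 0.00612), and SLC4A4 was the 1 member of 5 called in this comparison, in which 4.13% of all genes were called and 0.979% were called lower. The call held without any 1 of the 7 lambs (-2.45 to -1.60, adjusted p 0.0014 to 0.0421) and with sex as a covariate (-2.01, adjusted p = 0.00919). In a fit to the lambs at term alone the value was -1.96 with an adjusted p of 0.0879, which does not pass.

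The same difference shows in the share of duct-like cells with the transcript. After thinning to 2000 UMIs, 73.8%, 72.0%, 79.0% and 47.9% of the duct-like cells of the WT lambs held SLC4A4, against 39.7%, 16.4% and 27.5% in CFTR-/- lambs. Before thinning the shares were 66.7% to 95.4% in WT and 51.2% to 76.1% in CFTR-/- lambs, although CFTR-/- cells were deeper (median 11090 against 5874 UMIs). The 2 libraries of CFTR-/- replicate 1 gave 308 and 361 CPM and those of replicate 3 gave 199 and 207 CPM, so the spread between libraries of an animal was smaller than that between animals.

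Markers of other cells were counted beside SLC4A4 at term. The summed duct markers, by which these cells were assigned, were at 11226 to 14205 CPM in the duct-like cells of CFTR-/- lambs. In WT lambs they were at 7733 to 10454 CPM. The summed acinar markers overlapped, with 2547 to 17537 CPM in WT and 1545 to 10461 CPM in CFTR-/- lambs. Dividing-cell markers were at 108, 417 and 224 CPM in CFTR-/- and 17.4, 158, 32.5 and 39.9 CPM in WT lambs, and stromal markers at 39.7, 107 and 59.1 against 10.2, 87.1, 8.47 and 11.4 CPM. Both lists had the higher mean in CFTR-/- lambs and overlapped at WT replicate 2. The part of these lists and of the duct and acinar markers in the result was not tested. The CFTR-/- lambs comprise 2 naturally bred females and 1 cloned male, with 105 and 335 CPM in the females and 203 CPM in the male.

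At the earlier ages SLC4A4 did not pass the test. At 80 days WT fetuses had 715, 1052, 823 and 529 CPM and CFTR-/- fetuses 413, 573 and 444 CPM (log2 -0.61, adjusted p = 0.504), and the groups overlapped at 1 animal each. At 120 days WT fetuses had 1242, 1066 and 701 CPM, CFTR-/- males 817, 403, 545 and 902 CPM (-0.59, adjusted p = 0.503), and CFTR-/- females 786 and 836 CPM (-0.33, adjusted p = 0.822). The log2 difference at term was not shown to exceed the earlier ones: it lay -1.34 ± 0.511 from that at 80 days (interaction contrast, adjusted p = 0.650) and -1.35 ± 0.517 from that of the males at 120 days (adjusted p = 0.383). These contrasts called 0.0151% and 0% of all genes.

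**Figure D3:**
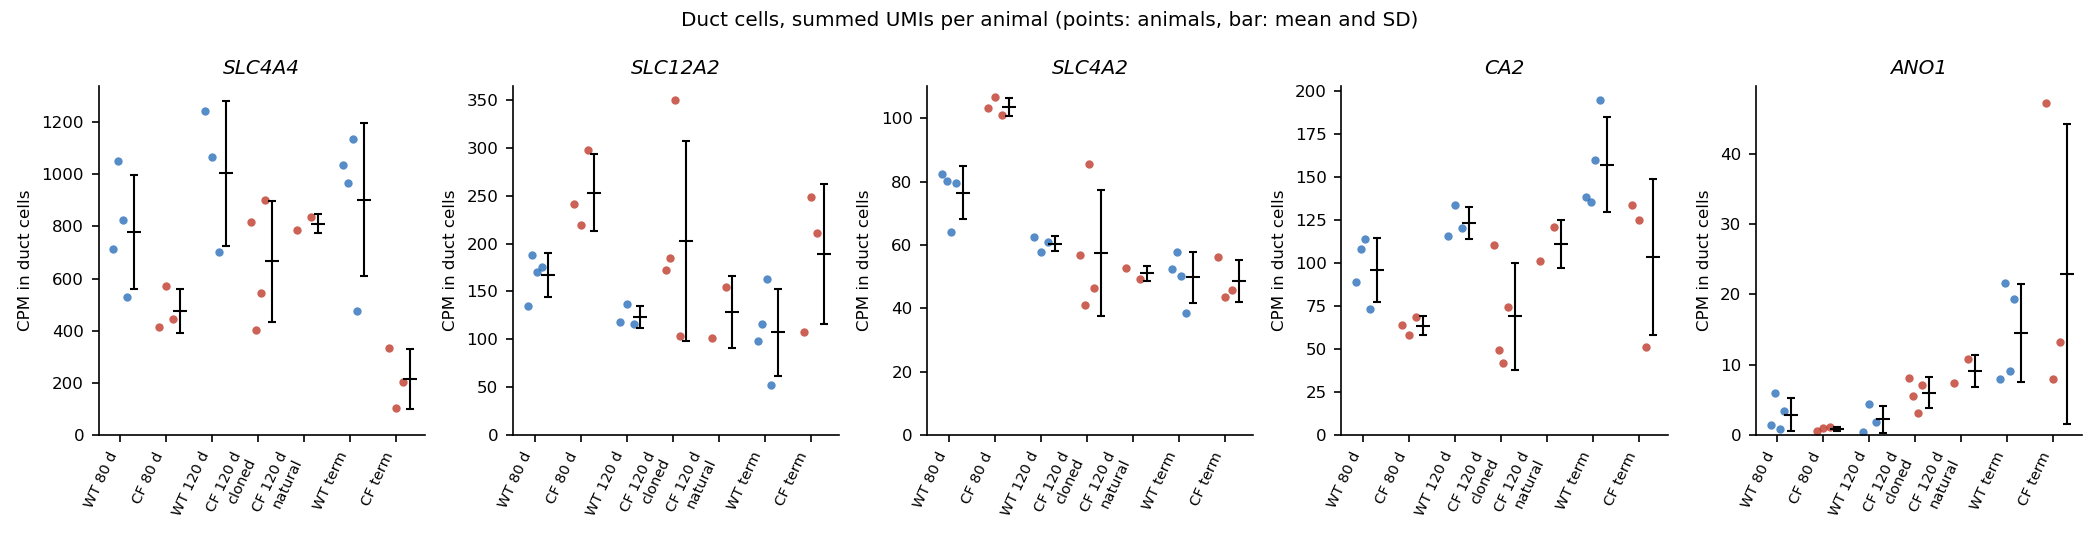
CPM of 5 members in duct-like cells of each animal by group (WT in blue, CFTR-/- in red, bars for the mean ± SD). SLC4A4 in the 3 CFTR-/- lambs at term (105 to 335 CPM) lies below every WT lamb (475 to 1137 CPM), and ANO1 in all 7 lambs at term (7.95 to 47.3 CPM) lies above every fetus at 80 days (0.588 to 5.97 CPM).

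SLC12A2 gave higher values in CFTR-/- duct-like cells at most ages without passing the test. At 80 days CFTR-/- fetuses had 242, 219 and 298 CPM and WT fetuses 135, 188, 171 and 175 CPM. These groups did not overlap (log2 0.70 ± 0.320, adjusted p = 0.324), in a comparison that called 0 of 5 members and 1.58% of all genes. At 120 days CFTR-/- males had 172, 185, 350 and 103 CPM against 118, 137 and 116 CPM in WT (0.62, adjusted p = 0.443). The highest of these values came from the shallow library of replicate 3, without which the difference was 0.36. CFTR-/- females had 101 and 155 CPM (0.01, adjusted p = 0.999). At term the values were 107, 249 and 211 CPM in CFTR-/- and 97.9, 116, 163 and 52.2 CPM in WT lambs (0.91, adjusted p = 0.118). Leaving out CFTR-/- replicate 1, the lowest of its group, brought this difference past the threshold (1.18, adjusted p = 0.0307). That fit called 1051 genes in all, the most of the 20 alternatives, against 548 in the fit over all animals.

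SLC4A2 passed the test between the genotypes at no age in the fit over all animals. At 80 days CFTR-/- fetuses had 103, 107 and 101 CPM against 82.3, 80.1, 64.0 and 79.6 CPM in WT, again without overlap (0.53 ± 0.182, adjusted p = 0.153). In a fit to the 80-day fetuses alone, both SLC4A2 (0.49, adjusted p = 0.0322) and SLC12A2 (0.66, adjusted p = 0.0204) passed. That fit called 1338 genes in all, against 210 in the fit over all animals, so calls rose in general. In the duct-like cells of these fetuses the summed duct markers were at 6248 to 7097 CPM in CFTR-/- and 4403 to 5522 CPM in WT, and the summed acinar markers at 468 to 970 and 1059 to 2180 CPM, both without overlap. Their part in these differences was not tested. At 120 days WT fetuses had 62.4, 57.8 and 60.9 CPM and CFTR-/- males 56.8, 40.9, 85.5 and 46.4 CPM (-0.18, adjusted p = 0.733), and the CFTR-/- females had 52.8 and 49.3 CPM (-0.30, adjusted p = 0.628). At term WT lambs had 50.3 to 57.9 CPM in 3 animals and 38.6 CPM in replicate 4, and CFTR-/- lambs 56.2, 43.7 and 45.8 CPM (0.05, adjusted p = 0.925).

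CA2 had lower group means in CFTR-/- duct-like cells at each age, and no difference passed. At 80 days CFTR-/- fetuses had 63.8, 58.3 and 68.9 CPM, all below the 73.1 to 114 CPM of the WT fetuses (-0.48 ± 0.31, adjusted p = 0.545). At 120 days CFTR-/- males had 111, 49.4, 42.0 and 74.6 CPM, all below the 116, 134 and 121 CPM of WT (-0.80, adjusted p = 0.271), and females 101 and 121 CPM (-0.20, adjusted p = 0.888). At term CFTR-/- lambs had 134, 125 and 51.4 CPM and WT lambs 138, 136, 160 and 195 CPM (-0.50, adjusted p = 0.422).

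At 120 days, CFTR-/- males against WT called 0 of 5 members and 0.12% of all genes, and CFTR-/- females against WT 0 of 5 and 0% of all genes. At an unadjusted p under 0.05, edgeR listed 2 members at 80 days (SLC4A2 and SLC12A2), 2 in the 120-day males (CA2 and ANO1) and 1 in the 120-day females (ANO1). The share of all genes at this looser threshold was not determined, so these counts have no baseline. At an adjusted p of at most 0.05, DESeq2 called 0 in each of these comparisons. CFTR-/- males against CFTR-/- females called 0 of 5 members (0.723% of all genes, 0 members at an unadjusted p under 0.05 and 0 by DESeq2), with values of -0.60 for CA2 to 0.61 for SLC12A2. The members' median log2 differences from WT were -0.48 at 80 days, -0.18 and -0.20 in the males and females at 120 days and 0.05 at term, against 0.00 to 0.02 for all genes tested.

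ANO1 was higher at term than at 120 days in WT duct-like cells, in a call that was not stable. In WT duct-like cells it was counted at 1.43, 5.97, 0.889 and 3.42 CPM at 80 days, at 0.500, 4.36 and 1.87 CPM at 120 days, and at 7.97, 21.6, 9.08 and 19.3 CPM at term. All WT lambs at term lay above all WT fetuses at 120 days (2.89 ± 0.686, adjusted p = 0.0495), and 1 member of 5 was called in a comparison that called 0.783% of all genes, and 0.452% as higher at term. Counts were small, with 24 UMIs in the 3 fetuses at 120 days and 111 in the 4 lambs. The call was lost in 6 of 7 fits without 1 animal (log2 2.37 to 3.40, adjusted p 0.0323 to 0.223) and in a fit to these ages alone (adjusted p = 0.134). The remaining call was that without WT replicate 1 at term. With the replicate number as a block the call was lost too (2.62, adjusted p = 0.132). Other lists moved with age in the same cells, the duct markers from 5964 to 7000 CPM at 120 days to 7733 to 10454 CPM at term and the dividing-cell markers from 112 to 426 CPM to 17.4 to 158 CPM. Endocrine markers went from 338 to 418 CPM to 110 to 272 CPM, without overlap. Acinar markers were at 2705 to 4081 CPM and 2547 to 17537 CPM, with the highest value in WT replicate 2 at term, which also had the most ANO1. Their part in the rise was not tested.

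In CFTR-/- males ANO1 was higher at 120 than at 80 days, again in a call that was not stable. ANO1 had 0.588, 1.03 and 1.14 CPM at 80 days (17 UMIs in all) and 8.14, 5.56, 3.11 and 7.17 CPM at 120 days (171 UMIs), without overlap (2.90 ± 0.700, adjusted p = 0.0254). SLC4A2 fell in the same comparison, from 101 to 107 CPM at 80 days to 40.9 to 85.5 CPM at 120 days (-0.81 ± 0.183, adjusted p = 0.0181), so 2 of 5 members were called where 3.75% of all genes were, 1.98% higher and 1.77% lower at 120 days. The calls were lost without 1 animal in 5 of 7 fits for ANO1 (without CFTR-/- replicate 1 or 4 at 120 days or any of the 3 fetuses at 80 days) and in 4 of 7 for SLC4A2 (without replicate 4 at 120 days or any fetus at 80 days). Neither call held with the replicate number as a block (adjusted p = 0.0891 for ANO1 and 0.0667 for SLC4A2). WT fetuses at 120 against 80 days called 0 of 5 members (1.2% of all genes, 0 at an unadjusted p under 0.05 and 0 by DESeq2), with -0.26 for ANO1 and -0.10 for SLC4A2. The sign of the ANO1 value was not stable, with 0.87 without the heterozygous fetuses, 0.13 without replicate 2 at 80 days, 0.26 without WT replicate 1 at 120 days and 0.06 with the replicate number as a block. The difference between these age steps equals the change of the CFTR-/- effect from 80 to 120 days, which was 3.15 ± 1.04 for ANO1 (adjusted p = 0.581) and -0.71 ± 0.260 for SLC4A2 (adjusted p = 0.619) and did not pass. Beside these values, dividing-cell markers in duct-like cells were at 645 to 774 CPM in CFTR-/- males at 80 days and at 127 to 318 CPM at 120 days. Stromal markers were at 131 to 213 and 37.9 to 80.9 CPM and intestinal markers at 53.3 to 67.3 and 15.9 to 40.2 CPM, also without overlap. The part of these lists in the changes was not tested.

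At term ANO1 did not separate the genotypes. CFTR-/- lambs had 47.3, 7.95 and 13.3 CPM (0.78 against WT, adjusted p = 0.485). Without CFTR-/- replicate 1 the value turned to -0.33. The highest value of all animals came from CFTR-/- replicate 1, whose libraries gave 44.5 and 49.8 CPM and whose acinar-like cells had 5.78 CPM. At 120 days the CFTR-/- females had 7.45 and 10.8 CPM, above all 3 WT fetuses (2.15 ± 0.748, adjusted p = 0.260). The CFTR-/- males of that age overlapped the WT fetuses (1.74, adjusted p = 0.286). At 80 days the genotypes overlapped too (-1.42, adjusted p = 0.459).

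Of the 55 pathway genes, 35 were tested in duct-like cells. Of these, 1 was called for CFTR-/- against WT at 80 days and 1 at term (1.58% and 4.13% of all genes), none in males or females at 120 days, 3 for CFTR-/- males at 120 against 80 days (3.75% of all genes) and 1 for this step in WT (1.2%). SLC26A9, an epithelial chloride transporter of the SLC26 family, was lower at term in CFTR-/- lambs (4.64, 5.63 and 2.35 CPM) than in WT lambs (18.2, 11.9, 19.0 and 19.3 CPM). The groups did not overlap (-1.96 ± 0.429, adjusted p = 0.0121), and the call was lost without CFTR-/- replicate 3, the cloned male (-1.62, adjusted p = 0.0842). The marker lists given above for the lambs at term moved beside it. WNK4, a kinase that regulates ion cotransporters, was lower in CFTR-/- fetuses at 80 days (3.82, 6.72 and 7.08 CPM) than in the WT group (13.5, 20.5, 39.1 and 22.4 CPM; -1.88 ± 0.451, adjusted p = 0.0345). That call was lost in 6 of 7 fits without 1 animal (without any animal but WT replicate 1) and without the heterozygous fetuses (-2.02, adjusted p = 0.170). The duct and acinar marker lists given above for these fetuses moved beside it. The membrane carbonic anhydrase CA12 fell in CFTR-/- males from 9.41, 10.2 and 6.19 CPM at 80 days to 0.852, 0, 1.55 and 0.326 CPM at 120 days (-3.79 ± 0.676, adjusted p = 0.00508), also in each of 7 fits without 1 animal. In WT it had 6.31, 4.26, 0 and 2.49 CPM at 80 days (35 UMIs in all) and 12 UMIs in all at 120 days (-1.66, adjusted p = 0.250). In the same comparison the exchanger family member SLC26A11 rose, from 3.92 to 5.69 CPM at 80 days to 7.85 to 10.3 CPM at 120 days (1.05, adjusted p = 0.0393, lost in 5 of 7 fits without 1 animal). The WT value for SLC26A11 was close to it without passing, with 5.12 to 9.78 CPM at 80 days and 10.3 to 12.7 CPM at 120 days (0.96, adjusted p = 0.0834). SLC5A1, the sodium-glucose cotransporter, rose from 80 to 120 days in CFTR-/- males (3 to 60 UMIs in all, log2 3.74, adjusted p = 0.0102, lost without CFTR-/- replicate 3 at 80 days, 3.47, adjusted p = 0.102) and in WT (5 to 50 UMIs, 2.90, adjusted p = 0.0484, lost in 6 of 7 fits). With the replicate number as a block neither SLC5A1 call held (adjusted p = 0.0517 and 0.0695), nor did that of WNK4 (-1.69, adjusted p = 0.0880) or SLC26A11 (0.92, adjusted p = 0.132). With library totals SLC26A11 in CFTR-/- males (0.91, adjusted p = 0.0651) and SLC5A1 in WT (2.68, adjusted p = 0.0550) no longer passed, nor did SLC26A11 without the filter on low counts (adjusted p = 0.0648). SLC5A1 in WT was also lost without the heterozygous fetuses (3.23, adjusted p = 0.316) and with sex as a covariate (2.84, adjusted p = 0.0695). The marker lists given above for CFTR-/- males at these ages moved beside CA12, SLC26A11 and SLC5A1. In WT duct-like cells, stromal markers (125 to 168 and 40.9 to 82.0 CPM), intestinal markers (55.1 to 60.3 and 21.0 to 36.9 CPM), endocrine markers (537 to 790 and 338 to 418 CPM), duct markers (4403 to 5522 and 5964 to 7000 CPM) and acinar markers (1059 to 2180 and 2705 to 4081 CPM) differed without overlap between 80 and 120 days. Their part was not tested.

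In acinar-like cells, 15572 genes and 7 members were tested, and no member was called at any age. The comparisons called 0.437% of all genes at 80 days, 0.00642% and 1.08% at 120 days in males and females, and 1.56% at term. At an unadjusted p under 0.05 edgeR listed ANO1 at 80 days, SLC12A2 in males at 120 days, no member in females, and SLC12A2 and SLC4A2 at term. The share of all genes at that threshold was not determined. By its adjusted p, DESeq2 called SLC12A2 at term and none in the other comparisons. SLC12A2 at term had 8.49, 71.5 and 37.3 CPM in CFTR-/- and 14.6, 11.3, 9.73 and 14.5 CPM in WT acinar-like cells (1.46 ± 0.426, adjusted p = 0.0833). The CFTR-/- lambs differed from each other by more than the WT lambs, with replicate 1 below all WT lambs and the other 2 above them. Without replicate 1 the difference passed the test (1.89, adjusted p = 0.0221). Over the alternatives at term, 45 to 1062 genes were called in acinar-like cells, against 243 in the fit over all animals. ANO1 in acinar-like cells at 80 days was 4.89 to 5.63 CPM in CFTR-/- and 1.88 to 3.53 CPM in WT fetuses (0.89, adjusted p = 0.222), again without overlap.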

How the data were processed

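The authors deposited UMI counts per gene and barcode for each 10x Genomics 3' library, made with Cell Ranger 3.1.0 against Oar_v4.0, without normalization. Replicates come from separate animals, some of them littermates, and both libraries of an animal were summed. The 8 genes and the lists used here were chosen with earlier results of these data known. Cells were assigned to a lineage by marker scores (at least 3 markers, a minimum score of 0.3 and a lead of 0.2), and no doublets were removed. UMIs were summed per animal and lineage with at least 20 cells, without 87 ribosomal protein genes. Groups were compared with edgeR 4.0.16 in R 4.3.3 (TMM, filterByExpr, glmQLFit, glmQLFTest, Benjamini-Hochberg adjusted p of at most 0.05), DESeq2 1.42.0 being an alternative. Standard errors are the log2 fold change divided by the square root of F. The 2 heterozygous fetuses were placed in the WT group. The limit given for a count of 0 is 3 UMIs over the summed UMIs of the lineage and covers counting error only. The scripts were tested on simulated counts. Scaling by library totals and the interaction contrasts were added after the data were seen. Genes named are the 8 members, the 5 called pathway genes with the lowest adjusted p in each comparison and the 3 genes with the highest rho for each member (fewer printed here). A gene that this rule selects is not reported here. Sums per animal spanned 643609 to 14500052 UMIs in duct-like cells.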

Additional observations from a re-analysis of the deposited data

Results flagged for a closer look

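Of 34 sets of 4 animals (a gene in a lineage of a group) tested by Dixon's criterion, 3 held an animal far from the others, and chance flags about 1 in 20. ANO1 in acinar-like cells of CFTR-/- male replicate 3 at 120 days was 10.6 CPM against 2.74 to 3.63 CPM in the other 3 fetuses of the group, in the library with the fewest UMIs. CA2 in acinar-like cells of WT replicate 4 at term was 24.6 CPM against 13.1 to 14.2 CPM in the other WT lambs, and this animal's intestine-like cells had 4646 CPM. SLC4A2 in duct-like cells of the WT group's replicate 3 at 80 days was 64.0 CPM against 79.6 to 82.3 CPM in the other fetuses, on a sum of 111 cells. Causes were not tested.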

How the results depend on the processing

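SLC4A4 in duct-like cells at term kept its direction under all 20 alternatives and its call under 19. Counts of members called (edgeR, adjusted p of at most 0.05) moved as follows. In a fit to the ages compared alone, duct-like cells gave 2 in place of 0 members for CFTR-/- against WT at 80 days, 0 in place of 1 at term (SLC4A4, adjusted p = 0.0879), and 0 in place of 1 for WT at term against 120 days. Over all genes these fits called 1338 in place of 210, 102 in place of 548 and 23 in place of 104. Leaving out 1 animal gave 1 to 2 members at term in duct-like cells (2 without CFTR-/- replicate 1), 0 to 2 for CFTR-/- males at 120 against 80 days, 0 to 1 for WT at term against 120 days, and 0 to 2 in acinar-like cells at term (1 without CFTR-/- replicate 1, and 2, SLC12A2 and SLC4A2, without WT replicate 4). Where a group of 2 lost 1 animal, the lone fetus was assumed to vary like the other groups. DESeq2 called 1 member in acinar-like cells at term in place of 0. With library totals, ANO1 (0.54) and SLC26A6 (0.24) reversed between duct-like and acinar-like cells.

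Replicate numbers did not pair the animals: over 18 pairs the correlation of deviations ran from -0.261 to 0.319, with 4 over 0.1 and 6 of 18 highest with their own number. With the replicate number as a block, members called fell from 2 to 0 for CFTR-/- males at 120 against 80 days (ANO1 2.61, adjusted p = 0.0891, and SLC4A2 -0.76, adjusted p = 0.0667) and from 1 to 0 for WT at term against 120 days (ANO1 2.62, adjusted p = 0.132). The fit with the block left out the CFTR-/- females at 120 days, so comparisons with them were not made in it. Among the comparisons made, the block changed no other call of a member.

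Of 1141 values of members under alternatives, called or not, 1110 kept their side of the threshold (34 of them, not called, changed sign), 9 came to pass it, 20 ceased to pass it and 2 reversed. The calls between groups were less stable than this total. SLC4A4 at term kept its call in 19 of 20 alternatives and ANO1 in WT at term against 120 days in 11 of 19. For CFTR-/- males at 120 against 80 days, ANO1 kept its call in 13 of 19 and SLC4A2 in 14 of 19. Counts over all genes moved too. At term in duct-like cells, 548 genes became 102 in the fit to that age alone and 1051 without CFTR-/- replicate 1. At 80 days, 210 became 12 without the heterozygous fetuses and 1338 in the fit to that age alone. Leaving out each animal in the comparisons of lineages was not run. Depth limits SLC26A6, SLC26A3 and SCNN1A, for which 3 UMIs equal 0.207 to 4.66 CPM in the duct-like cells of an animal.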

Other observations

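Some members varied in lineages outside the comparisons above. In mural-like cells ANO1 was at 21.7 ± 11.8 CPM in the 4 fetuses of the WT group and 25.7 ± 8.10 CPM in the 3 CFTR-/- fetuses at 80 days. At 120 days it was at 32.0 ± 5.40 CPM in 3 WT fetuses, 65.9 ± 42.5 CPM in 4 CFTR-/- males and 52.4 and 52.5 CPM in the CFTR-/- females. Of the males, replicate 3 with the shallow library had 129 CPM, and the others had 36.6, 45.7 and 52.5 CPM. In the 3 CFTR-/- lambs at term it was at 48.8 ± 21.1 CPM, and 2 WT lambs had 16.7 and 64.7 CPM. These values rest on 25 to 176 UMIs per group.

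SLC4A4 in endocrine-like cells at term was at 9.94, 10.3 and 9.21 CPM (35, 27 and 5 UMIs) in 3 WT lambs and at 2.85, 2.01 and 1.92 CPM (26, 3 and 6 UMIs) in the CFTR-/- lambs, without overlap. WT replicate 1 had fewer than 20 such cells. At 80 days the order was the opposite, with 3.12 to 7.48 CPM in the WT group and 8.55 to 11.3 CPM in the CFTR-/- fetuses, and these values were not tested. Over all 21 animals endocrine-like cells ranged from 1.90 to 12.1 CPM, with the lowest mean of the 10 lineages (7.12 ± 3.29). Acinar-like cells, taken above as background, had a mean of 10.2 CPM, and 9.42 and 6.51 CPM in WT and CFTR-/- lambs. The endocrine-like values therefore lie near or below that background.

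SLC4A4 in Schwann-like cells was at 95.1, 37.6 and 45.5 CPM (210, 15 and 76 UMIs) in the CFTR-/- fetuses at 80 days and at 5.09 CPM (1 UMI) in the 1 WT fetus of that age with at least 20 such cells. At 120 days the order was not kept, with 23.7 and 96.2 CPM (2 and 11 UMIs) in 2 WT fetuses and 27.4, 31.7, 36.9 and 19.8 CPM (12, 8, 9 and 1 UMIs) in the CFTR-/- males. The intestine-like cells of 2 WT animals, in which SLC26A3 and CA2 were high, also held CFTR, at 146 and 53.1 CPM.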
